A study of Mus musculus with 20 samples.

Results

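The regions described here were acetylated at lysine 27 of histone H3 (H3K27ac) in both libraries from mice with intact *Tet2* and in neither library from *Tet2*-null mice, whether or not *Ep300* had been deleted. They were chosen by the presence or absence of a called peak, and 1490 (4.31%) were found among 34536 autosomal regions made by merging the H3K27ac peak lists of 4 genotypes. ChIP-Seq was performed on lineage-depleted (Lin-) bone marrow cells, which are enriched for stem and progenitor cells, with 1 library for each genotype and mark. Peak lists of H3K27ac, H3K4me1, and H3K4me3 were analysed, 12 in all. All mice were on the C57BL/6 background, carried floxed *Ep300* alleles (*Ep300* fl/fl), and received poly(I:C) as young adults. Mice with neither Cre nor a *Tet2* mutation are called WT. Those that also carried *Mx1-Cre* are called *Ep300*Δ/Δ (P300KO in the labels), those that instead lacked *Tet2* are called *Tet2*-/- (TET2KO), and those with *Mx1-Cre* that also lacked *Tet2* are called double-knockout (*Ep300*Δ/Δ*Tet2*-/-). *Mx1-Cre* is driven by an interferon-inducible promoter that poly(I:C) switches on, while the loss of *Tet2* did not depend on Cre. The sources used here do not state how many mice gave the cells of a library.

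H3K27ac marks active promoters and enhancers. It is laid down mainly by the acetyltransferases p300, encoded by *Ep300*, and CBP, and it is removed by histone deacetylases. TET2 oxidizes methylated cytosine, largely at CpG dinucleotides, and in blood progenitors much of its activity falls on enhancers. H3K4me1 marks enhancers whether or not they are acetylated, and H3K4me3 marks active and poised promoters. *TET2* is among the genes most often mutated in myelodysplastic syndrome, and its loss in mice expands stem cells and the myeloid lineage.

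Sequences of 200 bp around the WT summit are printed for 9 regions from the GRCm38 (mm10) plus strand, with CpG dinucleotides in capitals because CpG is the dinucleotide at which TET2 acts. The first 2 belong to regions where all 3 marks had a peak in WT and *Ep300*Δ/Δ cells and none in either *Tet2*-null library. The next is the strongest region outside promoters, followed by the 4 regions downstream of *Irf8*, a region inside *Spi1*, and the region just upstream of *Tgfbr1*.
Gm12026 region, chr11:19424247-19424446: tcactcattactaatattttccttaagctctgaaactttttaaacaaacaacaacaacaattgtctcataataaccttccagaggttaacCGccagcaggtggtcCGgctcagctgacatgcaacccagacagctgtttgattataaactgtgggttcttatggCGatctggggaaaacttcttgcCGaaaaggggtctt
Sgcd intron, chr11:47208481-47208680: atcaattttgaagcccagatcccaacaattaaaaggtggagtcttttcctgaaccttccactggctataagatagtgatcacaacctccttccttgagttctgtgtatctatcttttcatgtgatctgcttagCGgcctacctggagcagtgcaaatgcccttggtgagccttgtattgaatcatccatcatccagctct
Nxpe1-ps region, chr9:48413343-48413542: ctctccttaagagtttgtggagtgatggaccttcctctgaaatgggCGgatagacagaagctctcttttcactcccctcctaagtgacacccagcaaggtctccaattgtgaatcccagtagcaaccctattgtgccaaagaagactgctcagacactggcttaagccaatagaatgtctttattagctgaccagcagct
Irf8 downstream, nearest, chr8:120761166-120761365: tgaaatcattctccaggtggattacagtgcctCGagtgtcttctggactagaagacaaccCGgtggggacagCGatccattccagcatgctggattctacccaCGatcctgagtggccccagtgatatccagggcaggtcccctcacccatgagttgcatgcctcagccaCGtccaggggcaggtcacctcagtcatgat
Irf8 downstream, next, chr8:120774351-120774550: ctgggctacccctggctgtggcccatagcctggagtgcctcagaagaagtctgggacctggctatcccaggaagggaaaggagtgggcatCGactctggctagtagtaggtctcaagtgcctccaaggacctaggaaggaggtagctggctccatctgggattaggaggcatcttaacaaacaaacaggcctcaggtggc
Irf8 downstream, further, chr8:120777617-120777816: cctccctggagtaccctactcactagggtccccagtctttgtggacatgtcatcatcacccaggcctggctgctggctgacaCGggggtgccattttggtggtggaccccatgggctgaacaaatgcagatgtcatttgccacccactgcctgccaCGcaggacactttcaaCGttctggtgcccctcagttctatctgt
Irf8 downstream, farthest, chr8:120784098-120784297: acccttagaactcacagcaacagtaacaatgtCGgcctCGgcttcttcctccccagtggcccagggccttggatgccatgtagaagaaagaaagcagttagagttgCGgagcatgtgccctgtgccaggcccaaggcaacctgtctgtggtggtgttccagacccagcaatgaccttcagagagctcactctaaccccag
Spi1 intron, chr2:91086150-91086349: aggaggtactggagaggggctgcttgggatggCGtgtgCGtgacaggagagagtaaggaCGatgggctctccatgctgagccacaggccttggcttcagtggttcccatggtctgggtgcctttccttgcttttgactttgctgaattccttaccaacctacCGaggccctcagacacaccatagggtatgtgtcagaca
Tgfbr1 upstream, chr4:47352730-47352929: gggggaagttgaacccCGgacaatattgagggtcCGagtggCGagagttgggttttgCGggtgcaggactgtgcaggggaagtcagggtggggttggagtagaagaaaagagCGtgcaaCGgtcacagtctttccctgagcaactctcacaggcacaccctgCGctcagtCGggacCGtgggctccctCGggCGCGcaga

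The number of CpG dinucleotides in these stretches was 4 for *Gm12026*, 1 for *Sgcd*, 1 for *Nxpe1-ps*, 5, 1, 3, and 3 for the *Irf8* regions in the order printed, 4 for *Spi1*, and 12 for *Tgfbr1*. The *Tgfbr1* stretch, 61% GC, was thus the richest in CpG of those shown, and the *Gm12026* stretch, 42% GC, the poorest in G and C. Over all 1490 regions the median was 1.5 CpG per 100 bp and 52.5% GC, against 5.00 and 58.5% at the 12194 regions acetylated in all 4 libraries and 2.50 and 54.0% at all 27354 regions with a WT peak. Outside promoters the mean was 1.51 CpG per 100 bp at the lost regions and 2.05 at those acetylated in all 4 libraries, while the median was 1.5 at both. Repeat-masked sequence made up 14.2% of these windows at the lost regions, 6.95% at regions of all 4 libraries, and 11% at all WT regions. Outside promoters it was 16% at the lost regions and 15.2% at all WT regions.

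A region is called lost where a list held no peak overlapping it, which need not mean that no acetylation was left. Loss without *Tet2* was the fate of 9.06% (95% CI, 8.63%–9.51%) of the 16444 regions acetylated in both WT and *Ep300*Δ/Δ cells. The opposite pattern, acetylation in *Tet2*-/- and double-knockout cells only, held for 458 of 13865 regions (3.30%), and acetylation in WT and *Tet2*-/- cells only, lost with *Ep300* in either *Tet2* state, held for 2271 of 17566 (12.9%). Acetylation in the 2 *Ep300*-deleted libraries only held for 1.88% of 13317 regions. Taken 1 library at a time, 35.8% of WT regions had no *Tet2*-/- peak and 28.9% of *Ep300*Δ/Δ regions had no double-knockout peak. A further 12194 regions were acetylated in all 4 libraries and 7323 in WT alone. These counts follow from the rule that chose the regions and are given without a test. Intervals here and throughout are exact binomial (Clopper-Pearson) and cover counting error only, since no genotype had a replicate, and regions are not replicates of a genotype. Peak lists do not give the read depth, and the H3K27ac lists held 29659 peaks in WT and 22727 in *Ep300*Δ/Δ cells, and 24539 in *Tet2*-/- and 18327 in double-knockout cells.

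**Figure D1:**
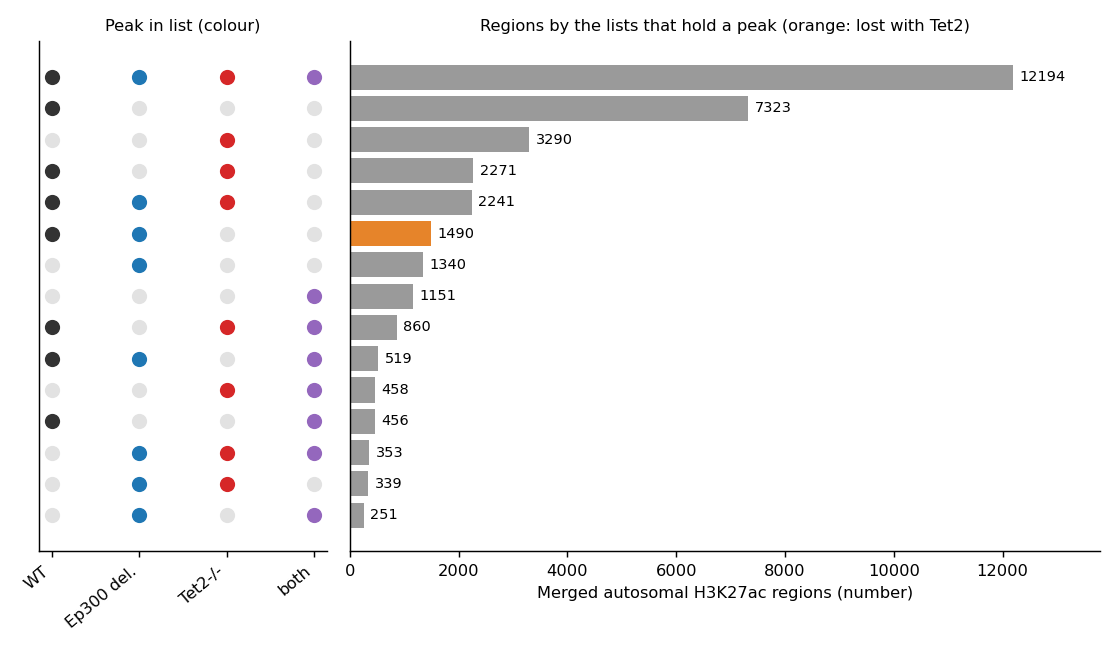
Number of merged autosomal H3K27ac regions (horizontal axis) for each combination of the 4 libraries with a peak; coloured dots at left mark the libraries that hold one, "both" being double-knockout. The orange bar is the 1490 regions lost with *Tet2*, beside 2271 regions lost with *Ep300* and 458 present only without *Tet2*.

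The lost regions were weak in the lists that held them. A rule of absence from other lists favors weak peaks, so this follows in part from the choice of regions. Strength was taken as the percentile of a peak's fold enrichment within its own list, where 100 is the strongest peak. The median percentile was 36.7 in WT and 24.8 in *Ep300*Δ/Δ cells, against 77.1 and 69.5 at regions acetylated in all 4 libraries. No such medians are given for the other sets of 2 libraries. The shares that follow are of regions with both WT and *Ep300*Δ/Δ peaks. Of those in the weakest 25% of the WT list, 30.2% were lost without *Tet2*, against 572 of 2860 from percentile 25 to 50, 7.90% from 50 to 75, and 0.565% in the strongest 25%. The shares of the same regions by strength in *Ep300*Δ/Δ cells were 25.1%, 15.4%, 3.48%, and 0.0970%, the last being 5 of 5156 regions. A total of 264 regions (17.7%) rested on a peak with a *q* value above the stated threshold of 0.05, of which 257 were in the *Ep300*Δ/Δ list.

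Acetylation often remained close by. A *Tet2*-null H3K27ac peak lay within 500 bp of 595 lost regions (39.9%; 95% CI, 37.4%–42.5%) and within 1000 bp of 727 (48.8%). The gap to the nearest one ranged from 4 bp to 1097334 bp with a median of 1130 bp. The corresponding share with a peak within 500 bp was 24.9% for regions lost with *Ep300* and 27.9% for regions present only without *Tet2*. Another 2241 regions had WT, *Ep300*Δ/Δ, and *Tet2*-/- peaks only, and 519 had WT, *Ep300*Δ/Δ, and double-knockout peaks only, so that a single peak kept them out. That peak was in the weakest 10% of its list for 295 of the former and 102 of the latter. The count of lost regions was 264 to 802 under stricter *q* thresholds, 722 with lists of equal size, 895 when a *Tet2*-null peak within 500 bp counted as presence, and 92 when only the upper part of the WT and *Ep300*Δ/Δ lists by fold, above percentile 50, was used.

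Of the 1490 lost regions, 783 (52.6%) lay in promoters, within 3000 bp of an annotated transcript start, 389 (26.1%) in introns, 255 (17.1%) between genes, and 63 (4.23%) in exons. Promoters held 83.5% of the regions acetylated in all 4 libraries, 59.3% of all autosomal regions, 57.6% of those present only without *Tet2*, 43.1% of those lost with *Ep300*, and 38.2% of those acetylated in WT alone. A transcript start fell inside 12.9% of the lost regions and inside 57.5% of those acetylated in all 4 libraries, a share that also depends on the width of the merged region. Loss took 6.19% of WT and *Ep300*Δ/Δ regions in promoters (95% CI, 5.77%–6.62%), 18.9% in exons, 19.8% in introns, and 17.1% between genes. The gap between promoters and the rest remained among regions of like strength, taken as the lower of the WT and *Ep300*Δ/Δ percentiles. Loss was 21.4% in promoters and 29.4% outside them below percentile 25, 9.22% and 18.2% from 25 to 50, and 1.25% and 5.66% from 50 to 75. Above percentile 75 no region of 4183 in promoters and 2 of 262 elsewhere (0.763%) were lost, and 0 of 4183 allows a share of up to 0.0881%.

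**Figure D2:**
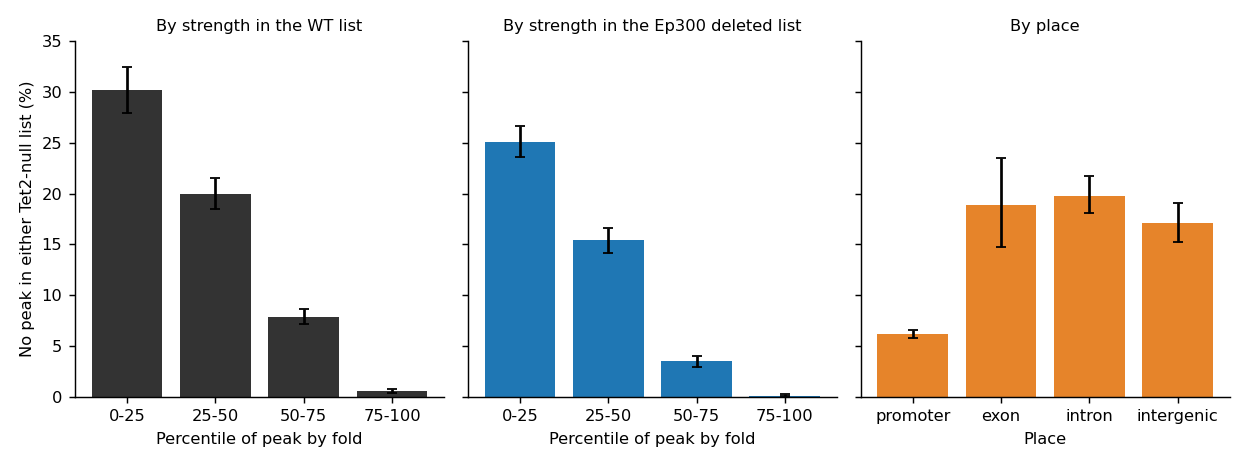
Percentage of H3K27ac regions with WT and *Ep300*Δ/Δ peaks that had no peak in either *Tet2*-null list (vertical axis), by percentile of fold enrichment in the WT list (left) or the *Ep300*Δ/Δ list (middle) and by place (right); bars show the share and error bars its 95% exact binomial interval. Loss fell from 30.2% to 0.565% with rising WT strength and was 6.19% in promoters against 17.1% to 19.8% elsewhere. A rule of absence from a list favors weak peaks.

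Widths are those of merged regions, which grow with the number of peaks merged, so that they cannot be compared between regions of 1, 2, and 4 libraries. The median width of the lost regions was 452.5 bp (interquartile range, 334 to 629.5 bp), and widths ran from 184 to 1959 bp. Among the other regions of 2 libraries, those present only without *Tet2* had a median of 462 bp and those lost with *Ep300* 507 bp. Width was nearly the same at lost promoters (452 bp) and lost regions elsewhere (453 bp). Lost regions occurred on all 19 autosomes, where they made up 7.28% (chromosome 12) to 10.7% (chromosome 8) of regions with WT and *Ep300*Δ/Δ peaks. Around *Tet2* itself, 0 of 8 such regions within 1 Mb (which allows a share of up to 36.9%) and 5 of 65 within 5 Mb (7.69%) were lost. Neither *Tet2* nor *Ep300* was the nearest gene of a lost region: *Tet2* had 2, 1, 1, and 1 regions, and *Ep300* had 2 in each library. Another lost region lay within 50000 bp of 546 of the 1490 (36.6%).

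H3K4me1 was present at most lost regions in all genotypes. It had a peak at 83.1% of them in WT and 83.8% in *Ep300*Δ/Δ cells, and 79.1% in *Tet2*-/- and 81.0% in double-knockout cells, and 1052 regions (70.6%) had it in all 4 libraries. Over all autosomal H3K27ac regions the shares, in the same order of genotypes, were 71.4%, 70.2%, 69.1%, and 70.6%, with *Tet2*-/- cells again lowest. Outside promoters the shares were 90.1%, 88.8%, 88.1%, and 89.4%, each within the 95% interval of the others. In promoters they were 76.8%, 79.3%, 70.9%, and 73.4%, both *Tet2*-null shares being below the WT interval of 73.6% to 79.7%. All autosomal promoter regions had H3K4me1 at 63.7%, 64.7%, 60.1%, and 64.1%, so a lower *Tet2*-/- share was present there too. Loss of H3K4me1 from both *Tet2*-null libraries, among regions with WT and *Ep300*Δ/Δ H3K4me1 peaks, took 33 of 1163 lost H3K27ac regions (2.84%; 95% CI, 1.96%–3.96%) and 2.79% of all 21863 autosomal H3K27ac regions, beside 2.91% at regions acetylated in all 4 libraries, 3.79% at those acetylated in WT alone, and 1.40% at regions lost with *Ep300*. The intervals of lost and all regions overlapped, so no difference from the background was detectable. The reverse, H3K4me1 in both *Tet2*-null libraries only, was seen at 5 of 1117 lost regions (0.448%; 95% CI, 0.145%–1.04%) against 1.84% of all regions and 4.44% of those acetylated only without *Tet2*.

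Where H3K4me1 had a peak in all 4 libraries, its median rank within the list was lower without *Tet2* at the lost regions. A rank compares a region with the other peaks of 1 library and is not an amount of signal. At the 1052 lost regions the median percentile was 84.3 in WT and 86.9 in *Ep300*Δ/Δ cells, and 80.9 in *Tet2*-/- and 79.7 in double-knockout cells. Over all autosomal regions the medians, in the same order of genotypes, were 80.8, 78.2, 78.3, and 77.7, and at regions acetylated in all 4 libraries 76.1, 78.6, 72.6, and 75.8, so that a lower rank was not particular to the lost regions. Outside promoters the medians were 88.1, 89.2, 84.4, and 83.4 at lost regions and 85.6, 80.9, 84.5, and 83.4 over all autosomal regions, where the double-knockout rank was above that in *Ep300*Δ/Δ cells. The rank was lower in both *Tet2*-null comparisons at 35.4% of the 1052 lost regions (95% CI, 32.5%–38.3%) and higher in both at 16.6%. At regions acetylated in all 4 libraries these shares were 29.4% and 22%, over all autosomal regions 28% and 23.4%, at regions acetylated in WT alone 31% and 20.3%, and at regions present only without *Tet2* they were 18.1% and 39.9%. Outside promoters the contrast was 34.9% lower and 17.7% higher at lost regions, against 25.2% and 26.8% at regions acetylated in all 4 libraries. It was 29.9% and 21.4% at those acetylated in WT alone, and 25.7% and 26% over all autosomal regions.

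H3K4me3 had a peak at 45.6% of the lost regions in WT and 41.5% in *Ep300*Δ/Δ cells, and 42.3% in *Tet2*-/- and 40.1% in double-knockout cells, against 57.7%, 54.4%, 58.2%, and 55.6% of all autosomal regions. At lost promoters the shares were 67.4%, 64.6%, 65.6%, and 62.7%, with overlapping intervals. It was carried by 81.0%, 78.5%, 81.0%, and 79.1% of all autosomal promoter regions, 97.4%, 96.6%, 97.6%, and 97.1% of those acetylated in all 4 libraries, and 47.4%, 39.2%, 44.6%, and 39.3% of those acetylated in WT alone. Among lost regions with H3K4me3 in WT and *Ep300*Δ/Δ cells, 33 of 587 (5.62%; 95% CI, 3.90%–7.80%) had none in either *Tet2*-null library. The background over all 18369 autosomal regions of that kind was 0.866% (95% CI, 0.737%–1.01%), and it was 0.101% at regions acetylated in all 4 libraries and 1.25% at regions lost with *Ep300*. At regions acetylated in WT alone, likewise without *Tet2*-null H3K27ac, it was 61 of 1306 (4.67%; 95% CI, 3.59%–5.96%), which overlapped the interval of the lost regions. The reverse change took 1.59% of lost regions and 1.26% of all regions, with overlapping intervals. The rank of H3K4me3, where all 4 libraries had a peak, was lower in both *Tet2*-null comparisons at 37.0% of 525 lost regions (95% CI, 32.8%–41.2%) and higher in both at 21.1%, against 27.5% and 26.2% at regions acetylated in all 4 and 27.6% and 26.9% of all autosomal regions. Regions acetylated in WT alone had 34.4% and 23.9%, both within the intervals of the lost regions (17.7%–24.9% for the higher rank).

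The joint loss of H3K4me3 was most frequent at weak H3K4me3 peaks and outside promoters, in the lost regions and in the background alike. By the lower of the WT and *Ep300*Δ/Δ H3K4me3 percentiles, it was 21.5% of lost regions against 6.71% of all regions below percentile 25, 11.5% against 1.16% from 25 to 50, and 0.424% against 0.0889% from 50 to 75, where 1 of 236 lost regions changed and the intervals overlapped. Regions acetylated in WT alone had 15.4%, 4.49%, and 1.16% in these ranges. Outside promoters it was 20 of 99 lost regions (20.2%; 95% CI, 12.8%–29.5%) against 3.88%, and in promoters 13 of 488 (2.66%; 95% CI, 1.43%–4.51%) against 0.396%, while regions acetylated in WT alone had 13.7% and 2.71%. The same kind of joint change was seen in other sets along their own contrast. H3K4me3 was lost with *Ep300* at 8.78% of regions that lost H3K27ac with *Ep300* (background, 2.55%), and was present only without *Tet2* at 4.97% of regions acetylated only without *Tet2* (background, 1.26%). By place, the shares lost with *Ep300* were 4.33% in promoters (background, 1.43%) and 20.4% outside them (8.96%). Those present only without *Tet2* were 1 of 211 in promoters (0.474%; background, 0.481%) and 14 of 91 outside them (15.4%; 5.84%). A joint change above the background was thus seen outside promoters along each of these contrasts, but not in promoters of the regions acetylated only without *Tet2*.

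**Figure D3:**
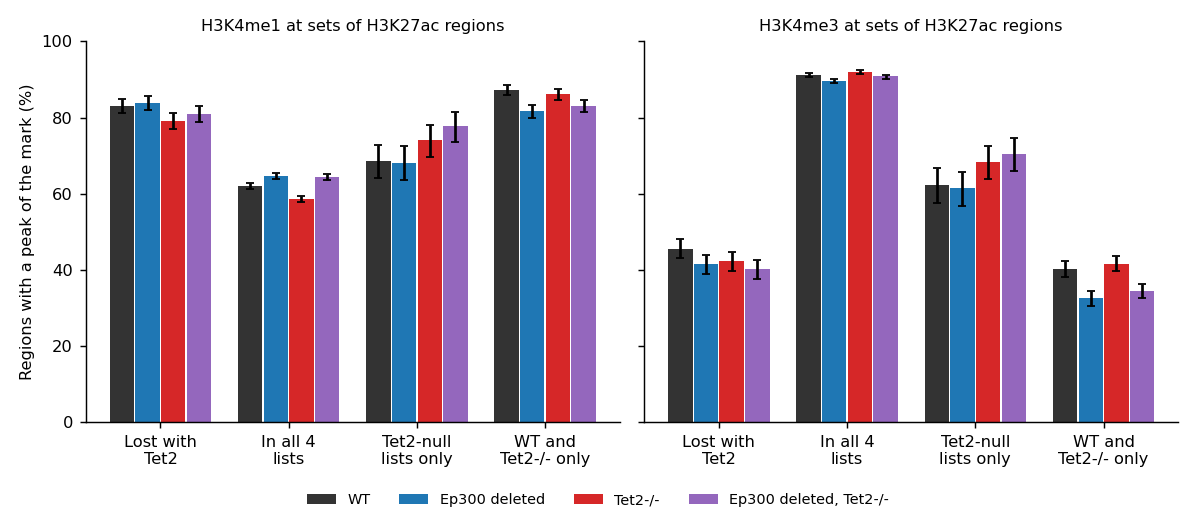
Percentage of H3K27ac regions with an H3K4me1 peak (left) or an H3K4me3 peak (right) in each of the 4 libraries (colours), for regions lost with *Tet2*, acetylated in all 4 lists, present in the *Tet2*-null lists only, and present in WT and *Tet2*-/- only; error bars are 95% exact binomial intervals. In single libraries, 79.1% to 83.8% of the regions lost with *Tet2* had H3K4me1 and 40.1% to 45.6% had H3K4me3, while 70.6% and 35.2% had them in all 4.

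A set of 3 regions had peaks of all 3 marks in WT and *Ep300*Δ/Δ cells and of none in either *Tet2*-null library. All were on chromosome 11, and they were singled out after their values were seen. No background share is given for this pattern, so the count and the shared chromosome are descriptions only. The region at chr11:19423513-19424846, 1334 bp wide, lay between genes, 39828 bp downstream of the nearest start, that of the predicted gene *Gm12026*. Its H3K27ac peak was at percentile 76.8 in WT (12.1-fold over H3) and 51.6 in *Ep300*Δ/Δ cells, its H3K4me1 peak at 73.8 and 87.3, and its H3K4me3 peak at 31.2 and 34.1. The nearest *Tet2*-null H3K27ac peak was 396484 bp away. The region at chr11:47208425-47208990 was in an intron of *Sgcd*, which encodes δ-sarcoglycan, 746242 bp from the nearest *Tet2*-null peak. It was at percentiles 55.1 and 61 for H3K27ac, 13.3 and 7.35 for H3K4me1, and 27.5 and 47.2 for H3K4me3. The region at chr11:102895449-102895975 was in the promoter of *Gfap*, the intermediate filament of astrocytes, and its *Ep300*Δ/Δ H3K27ac peak was weak, at percentile 1.75. The *q* of that peak was above the stated threshold of 0.05 (−log10 *q*, 0.523).

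By the strength of the mark that was lost with H3K27ac, 8 regions stood first, all of them through H3K4me1. Beside *Gm12026* they were nearest to *Prmt5*, *Ext2*, *Ap1s1*, *Cemip2*, *Gm17669*, *Gm19771*, and *Gm12974*. *Prmt5* encodes an arginine methyltransferase, *Ext2* a heparan sulfate polymerase subunit, and *Ap1s1* a clathrin adaptor subunit. The *Prmt5* region, chr14:54518116-54518745, lay 591 bp upstream of a start, with H3K4me1 at percentile 56.5 in WT and 77.3 in *Ep300*Δ/Δ cells, and no peak without *Tet2*. H3K4me3 was kept there in all 4 libraries, at percentiles 40.6, 42.3, 38.7, and 33.1. H3K4me3 was also kept in all 4 libraries at the *Ext2*, *Ap1s1*, *Cemip2*, and *Gm19771* regions. It was present in none of the 4 at *Gm17669* and *Gm12974*.

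The strongest regions outside promoters, by the lower of the WT and *Ep300*Δ/Δ percentiles, were those nearest to *Nxpe1-ps*, *Sfpq*, *5830416I19Rik*, *Neurl1b*, *Sgms2*, *Cep85*, *Kif21b*, *Gm48969*, *Gm26615*, and *Gm19309*. The *Nxpe1-ps* region, chr9:48413312-48413594, was 16.8-fold over H3 in WT (percentile 86.5) and 12.7-fold in *Ep300*Δ/Δ cells (percentile 83.9). Its H3K4me1 peak was at percentile 95.2 in WT, 49.3 in *Tet2*-/-, and 65.3 in double-knockout cells and absent in *Ep300*Δ/Δ cells. The region upstream of *Sfpq*, a splicing factor gene, reached percentiles 77.7 and 86.4. It had H3K4me3 in WT, *Ep300*Δ/Δ, and *Tet2*-/- cells, at percentiles 58.2, 53.5, and 20.5, and none in double-knockout cells. The region in an intron of *Sgms2*, a sphingomyelin synthase gene, was the widest of the 10 at 1766 bp, with H3K4me1 between percentiles 76.8 and 96.5 in all 4 libraries. The region in *Kif21b*, a kinesin gene, at percentiles 76 and 59.7, had H3K4me1 at 98.4, 99.8, 98.8, and 99.1. A *Tet2*-null H3K27ac peak began 138 bp from it.

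Of the 5 strongest lost promoters, 4 were those of *Rsg1*, *Ect2l*, *Sprtn*, and *Jarid2*. *Rsg1*, which encodes a small GTPase of ciliogenesis, reached percentile 74.4 in WT and 87.3 in *Ep300*Δ/Δ cells, at 14.4-fold in the latter, and its H3K4me3 peak was likewise present in WT and *Ep300*Δ/Δ cells only, at percentiles 40 and 55.4. *Jarid2*, a cofactor of Polycomb repressive complex 2, reached 67.5 and 71.5, with H3K4me3 at 90.8 and 96.3 with *Tet2* and at 55.3 and 61 without it. *Sprtn*, a DNA–protein crosslink protease gene, had the highest WT fold of all lost regions, 20.9, and was at percentile 69.3 in *Ep300*Δ/Δ cells, with H3K4me3 between 70.2 and 86.5 throughout. The *Ect2l* region had neither H3K4me1 nor H3K4me3 in any library. *Tet2*-null H3K27ac peaks lay 99 bp from the *Jarid2* region, 158 bp from that of *Sprtn*, and 71396 bp from that of *Ect2l*.

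The lost regions were nearest to 1286 genes, of which 925 (71.9%) were protein coding. A single lost region was assigned to 1120 of these genes and 3 or more to 32. Of these genes, 755 (58.7%) also had a region acetylated in all 4 libraries, and 968 (75.3%) had a WT region with a *Tet2*-null peak. Both shares were below those of all 10542 genes with a region acetylated in WT and *Ep300*Δ/Δ cells, 85.7% and 97%, as they must tend to be, since a gene whose regions were all lost has neither. Among lost promoters, 397 of 783 (50.7%) belonged to a gene with another promoter region acetylated in all 4 libraries, beside 49.1% of the 2796 promoter regions acetylated in WT alone. The 5 genes with the most lost regions were *Gm46562* (5), *Irf8* (4), *Psap* (4), *Atp8b4* (4), and *Gm17088* (4). *Gm46562* is a pseudogene beside the receptor genes *Ifnar1* and *Il10rb*, and its 5 regions lay within 14.2 kb. *Psap* encodes the precursor of the saposins, and *Atp8b4* a phospholipid flippase. *Gm17088* is an antisense gene within *Etv6*, which encodes an ETS family repressor needed by blood stem cells.

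The *Etv6* locus held the largest group, 7 lost regions, each within 50000 bp of the next, over 101.9 kb (chr6:134072053-134173963). All 7 had H3K4me1 peaks in all 4 libraries. The strongest by the lower of its percentiles, chr6:134171708-134172559, was at percentile 73.4 for H3K27ac in WT and 52.6 in *Ep300*Δ/Δ cells, with H3K4me1 at 99.3, 92.7, 79.1, and 84 in WT, *Ep300*Δ/Δ, *Tet2*-/-, and double-knockout cells. The region at chr6:134134161-134134983 was at 73.7 and 38.6 for H3K27ac, with H3K4me1 at 98.4, 99, 98.4, and 99.5. The 4 *Atp8b4* regions likewise had H3K4me1 in all 4 libraries, the one at chr2:126467851-126468509 between percentiles 96.3 and 100. *Atp8b4* as a whole had 20, 8, 9, and 4 acetylated regions in the same order of genotypes.

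*Irf8* encodes the interferon regulatory factor that directs monocyte and dendritic cell fate and restrains neutrophil output. It was the nearest gene of 11 acetylated regions in WT and 17 in *Ep300*Δ/Δ cells, and 3 in *Tet2*-/- and 4 in double-knockout cells. Over the 62.8 kb that these regions spanned, a stretch chosen after the values were seen, H3K27ac peaks covered 6.64 kb in WT and 9.67 kb in *Ep300*Δ/Δ cells, and 3.20 kb in *Tet2*-/- and 3.57 kb in double-knockout cells. H3K4me1 peaks covered 21.6, 15.4, 22.7, and 20.3 kb, and H3K4me3 peaks 7.32, 7.37, 8.25, and 6.38 kb. The bases under H3K27ac were thus fewer without *Tet2* in both *Ep300* states, those under H3K4me1 more in both, and those under H3K4me3 more in *Tet2*-/- than in WT and fewer in double-knockout than in *Ep300*Δ/Δ cells. The H3K27ac difference, in bases and in regions, follows in part from the rule, by which the lost regions have no *Tet2*-null peak. The lost regions began 24.7, 37.7, 41.2, and 47.7 kb from the start of *Irf8*, beyond its end and within the annotated span of *Gm20388*. Their H3K27ac percentiles were 36.8, 24.7, 14.9, and 27.1 in WT and 45.6, 37.7, 57.9, and 33.9 in *Ep300*Δ/Δ cells.

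H3K4me1 differed among the *Irf8* regions. The farthest had it in all 4 libraries, at percentiles 15.2, 21, 69.8, and 84.4, so that it ranked higher in the libraries without H3K27ac. The nearest had it in WT (49.8), *Tet2*-/- (74), and double-knockout cells (0.498). The 2 between them had it in *Ep300*Δ/Δ and *Tet2*-/- cells, and in *Ep300*Δ/Δ cells only. No H3K4me3 peak lay on any of the 4.

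**Figure D4:**
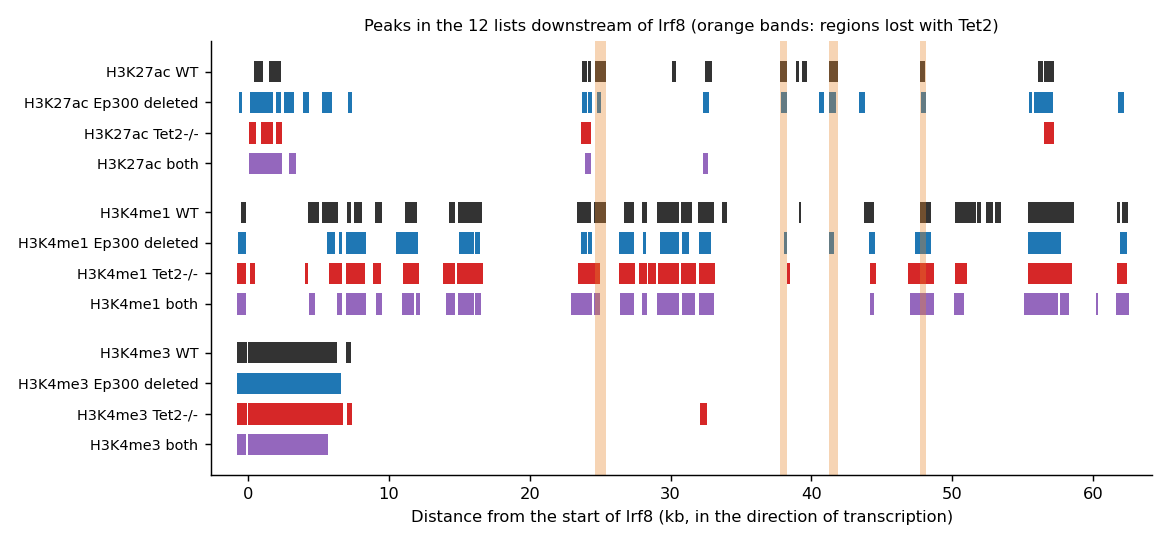
Peaks of H3K27ac, H3K4me1, and H3K4me3 (rows, by library; "both" is double-knockout) against the distance in kb from the start of *Irf8*, each bar being 1 peak drawn to scale; orange bands are the 4 lost regions. H3K27ac peaks covered 6.64 and 9.67 kb in the WT and *Ep300*Δ/Δ rows and 3.20 and 3.57 kb in the *Tet2*-null rows, while H3K4me1 covered 15.4 to 22.7 kb in all 4. The H3K27ac difference follows in part from the rule that chose the 4 lost regions.

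Genes of 14 lists were followed. A lost region was nearest to 1286 of 13253 genes with a WT region, a background of 9.70%, and 9.06% of regions with WT and *Ep300*Δ/Δ peaks were lost. Neutrophil genes had a lost region at 5 of 17 (29.4%), *Cebpd*, *Csf3r*, *Elane*, *Itgam*, and *Mpo*, and lost 5 of 17 regions (95% CI, 10.3%–56%). Monocyte and dendritic cell genes had one at 3 of 16, *Batf3*, *Irf8*, and *Spi1*, and lost 6 of 24 regions (25%; 95% CI, 9.77%–46.7%), 4 of them at *Irf8*. Growth factor and cytokine receptor genes had one at 5 of 17, *Csf3r*, *Ifngr1*, *Igf1r*, *Tgfbr1*, and *Tnfrsf1b*, and lost 9 of 41 regions (22%; 95% CI, 10.6%–37.6%). Stem and progenitor regulators had one at 3 of 21, *Erg*, *Runx1*, and *Spi1*, and lost 5 of 62 regions (8.06%; 95% CI, 2.67%–17.8%). The first 3 lists had the highest shares of lost regions among the 14, and their lower bounds lay above the background. The intervals treat the regions of a gene as independent, which they are not, and *Csf3r* and *Spi1* stand in 2 lists each. *Ep300*Δ/Δ peaks with a *q* above the stated 0.05 underlay lost regions of *Mpo*, *Cebpd*, *Batf3*, and *Ifngr1*. Their −log10 *q* was 0.193, 1.01, 0.722, and 0.523. Shares without such peaks were not computed for these lists.

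Erythroid genes had a lost region at 3 of 17 (*Nfe2*, *Slc4a1*, *Zfpm1*), megakaryocyte and platelet genes at 2 of 9 (*Nfe2*, *Vwf*), B lymphoid genes at 2 of 10 (*Bach2*, *Blnk*), and T and NK cell genes at 2 of 12 (*Notch1*, *Runx3*). Basophil, mast cell, and eosinophil genes had none at 10 genes (0 of 9 regions, which allows a share of up to 33.6%), and TET and DNMT genes and their partners none at 9 (0 of 16 regions, up to 20.6%). Acetyltransferase, deacetylase, and bromodomain genes had one at 4 of 19, among them *Brd3*, *Hdac5*, and *Ncoa3*. Interferon-stimulated genes had one at 2 of 20 (*Irf7*, *Psmb9*), NF-κB and early response genes at 2 of 22 (*Ier3*, *Nfkbia*), and cell cycle genes at 1 of 17 (*Ccne1*). Lost shares of regions in these lists were 15.2% for erythroid genes, 9.52% for megakaryocyte, 16.7% for B lymphoid, 11.1% for T and NK, 11.4% for acetyltransferase, 9.09% for interferon-stimulated, 3.85% for NF-κB, and 5.41% for cell cycle genes. The 95% interval of each of these 8 shares held the background.

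In the neutrophil list, *Csf3r*, the receptor of granulocyte colony-stimulating factor, lost its promoter region at chr4:126024116-126025169. Its H3K27ac peak was at percentile 69 in WT (9.72-fold) and 33.6 in *Ep300*Δ/Δ cells (4.68-fold), and *Csf3r* had 2, 1, 0, and 0 acetylated regions in WT, *Ep300*Δ/Δ, *Tet2*-/-, and double-knockout cells. H3K4me3 was kept there, at percentiles 50, 53.9, 48.2, and 55.9. *Itgam*, the CD11b integrin of myeloid cells, had a single acetylated region, at its start (chr7:128062711-128063183), at percentile 60.7 in WT and 29.1 in *Ep300*Δ/Δ cells. It kept H3K4me3 at 54.9, 36.8, 47.6, and 31.3 and H3K4me1 at 96.3, 84, 86.9, and 64.9. *Elane* and *Mpo*, which encode neutrophil elastase and myeloperoxidase of the primary granules, had weak lost regions at percentiles 26 and 15.7 and at 37.3 and 2.67. H3K4me1 ranked higher without *Tet2* at both, at 37.5, 50.6, 82.1, and 89.7 near *Elane* and 75.2, 73.9, 80.9, and 89.9 near *Mpo*. The lost region of *Cebpd*, a granulocyte transcription factor gene, was 1 of 5 with WT and *Ep300*Δ/Δ peaks, and 3 others were acetylated in all 4 libraries. The *Ep300*Δ/Δ peaks of the lost *Mpo* and *Cebpd* regions had a *q* above the stated threshold of 0.05 (−log10 *q*, 0.193 and 1.01).

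Markers of mature cells, which lineage depletion should remove, were checked in the same libraries. Of 4 such genes, promoter H3K27ac was present at 2 in WT and 2 in *Ep300*Δ/Δ cells, and at 1 in *Tet2*-/- and 0 in double-knockout cells, and promoter H3K4me3 at 1 in every library. *Cd3e* and *Ly6g*, which mark T cells and neutrophils, had no peak of either mark in any library. *Itgam* was acetylated in WT and *Ep300*Δ/Δ cells and *Cd5* in all but double-knockout cells, and *Itgam* carried H3K4me3 in all 4. The *Itgam* promoter is itself among the lost regions, so its absence without *Tet2* follows from the rule, and *Cd5* in double-knockout cells was the only other change. Of the progenitor markers *Kit*, *Cd34*, *Gata2*, *Meis1*, *Flt3*, and *Myb*, all 6 were acetylated in WT and *Ep300*Δ/Δ and 5 in each *Tet2*-null library, and all 6 carried H3K4me3 throughout. In a mixed Lin- population, fewer cells of a type and less acetylation per cell cannot be told apart. The part of the mature markers in the loss at neutrophil genes was not tested.

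Among the receptors, *Tgfbr1*, a type I receptor of transforming growth factor β, had 1 acetylated region in WT and *Ep300*Δ/Δ cells and none without *Tet2*. It lay 285 bp upstream of a start (chr4:47352395-47352937), at percentiles 31.2 and 13.8, and H3K4me3 was kept at 79.4, 60.9, 65, and 54.9. *Ifngr1*, the interferon γ receptor, lost 2 of its 7 regions with WT and *Ep300*Δ/Δ peaks, the base used for each gene that follows. The one 28725 bp upstream (chr10:19561776-19563224) was among the stronger, 16.3-fold in WT (percentile 85.7) and 5.36-fold in *Ep300*Δ/Δ cells (43.5), and its H3K4me1 ranked at 33, 69, 79.7, and 91.6. *Igf1r*, the insulin-like growth factor receptor, lost 3 of 10 regions, of which the promoter region chr7:67951887-67952107 was the strongest of all listed genes by the lower of its percentiles, 72.6 and 59.5. *Tnfrsf1b*, a receptor of tumor necrosis factor, lost 2 of 7, both intronic and with H3K4me1 in all 4 libraries.

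Among regulators of stem cells, *Runx1*, *Erg*, and *Spi1* also had 7, 6, and 3 regions acetylated in all 4 libraries. *Runx1*, a core-binding factor gene, had 20, 14, 12, and 7 acetylated regions in WT, *Ep300*Δ/Δ, *Tet2*-/-, and double-knockout cells, and lost 3 of the 13 with WT and *Ep300*Δ/Δ peaks, all within the gene and with H3K4me1 in all 4 libraries. The *Runx1* region at chr16:92786115-92786753 had H3K4me1 at percentiles 97, 99.9, 97.6, and 99.4. *Erg*, an ETS factor gene of stem cells, lost 1 of 8 regions, at chr16:95445927-95446962, which was at percentiles 60.7 and 48.2 for H3K27ac and 99.3, 89.2, 71.3, and 77 for H3K4me1. *Spi1*, which encodes the myeloid factor PU.1, lost 1 of 4, at chr2:91085634-91086500, where H3K27ac was at 32.1 and 37.6 and H3K4me1 at 77.6, 97.4, 95.3, and 99.1. *Batf3*, a dendritic cell factor gene, had 1 region in WT and *Ep300*Δ/Δ cells, at percentiles 4.61 and 4.78, and none without *Tet2*. The *Ep300*Δ/Δ peaks of this region and of another lost *Runx1* region had a *q* above the stated 0.05 (−log10 *q*, 0.722 and 0.392).

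*Zfpm1*, the GATA1 cofactor FOG1, lost 3 of 6 regions, of which that at chr8:122321332-122323203 was 1872 bp wide and kept H3K4me1 at 99.9, 99.8, 97.7, and 98.6. *Slc4a1*, the red cell anion exchanger, lost a region near its start (chr11:102365370-102366094), where H3K4me1 was at 54.5 in WT and 67.4 in *Ep300*Δ/Δ cells and absent from both *Tet2*-null libraries. *Nfe2*, an erythroid and megakaryocyte factor gene, lost 1 of 5 regions and kept H3K4me3 there, at 83.9, 67.7, 90.1, and 84.3. The lost *Vwf* region, beside an internal start of the von Willebrand factor gene, was at percentiles 25.1 and 20.8. The lost *Notch1* region, beside an internal start of this receptor gene of T cell fate, was at 32.1 and 40.6 and kept H3K4me3 at 79.4, 70.4, 58.3, and 88.5. The lost region in *Bach2*, a B cell factor gene, was at 53.2 and 41.6, that upstream of *Blnk*, a B cell adaptor gene, at 49.9 and 39.9, and that at the start of *Runx3*, a T cell factor gene, at 19.4 and 26.7.

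*Brd3*, a BET bromodomain gene, lost 1 of 2 regions, over a start, at percentiles 60.9 and 7.74, with both methyl marks in all 4 libraries. *Hdac5*, a class II deacetylase gene, lost an intronic region at 64.4 and 39.7, where H3K4me1 ranked at 97.2, 68.4, 27, and 38.3. *Ncoa3*, a nuclear receptor coactivator gene, lost an intronic region at 33.7 and 22.1. *Irf7* and *Psmb9*, interferon-induced genes, were at 1.33 and 51.1 and at 51.7 and 20.4. *Nfkbia*, the NF-κB inhibitor gene, lost 1 of 5 regions, at 22.3 and 7.37, and the early response gene *Ier3* its single one, at 42.3 and 17.4, although *Ier3* had 1 other region in each *Tet2*-null library. *Ccne1*, which encodes cyclin E1, lost 2 of 4 regions, both with H3K4me1 and H3K4me3 in all 4 libraries. The *Ep300*Δ/Δ peaks of the *Nfkbia* region and the intergenic *Ccne1* region had a *q* above the stated 0.05 (−log10 *q*, 1.11 and 1.04). Of the 43 lost regions at listed genes, 19 (44.2%; 95% CI, 29.1%–60.1%) had a *Tet2*-null H3K27ac peak within 500 bp, beside 39.9% of all lost regions. In 4 the gap was under 100 bp, at *Ier3* (32 bp), *Irf7* (46 bp), *Ccne1* (60 bp), and *Nfe2* (96 bp), so that acetylation was present beside the region called lost.

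**Figure D5:**
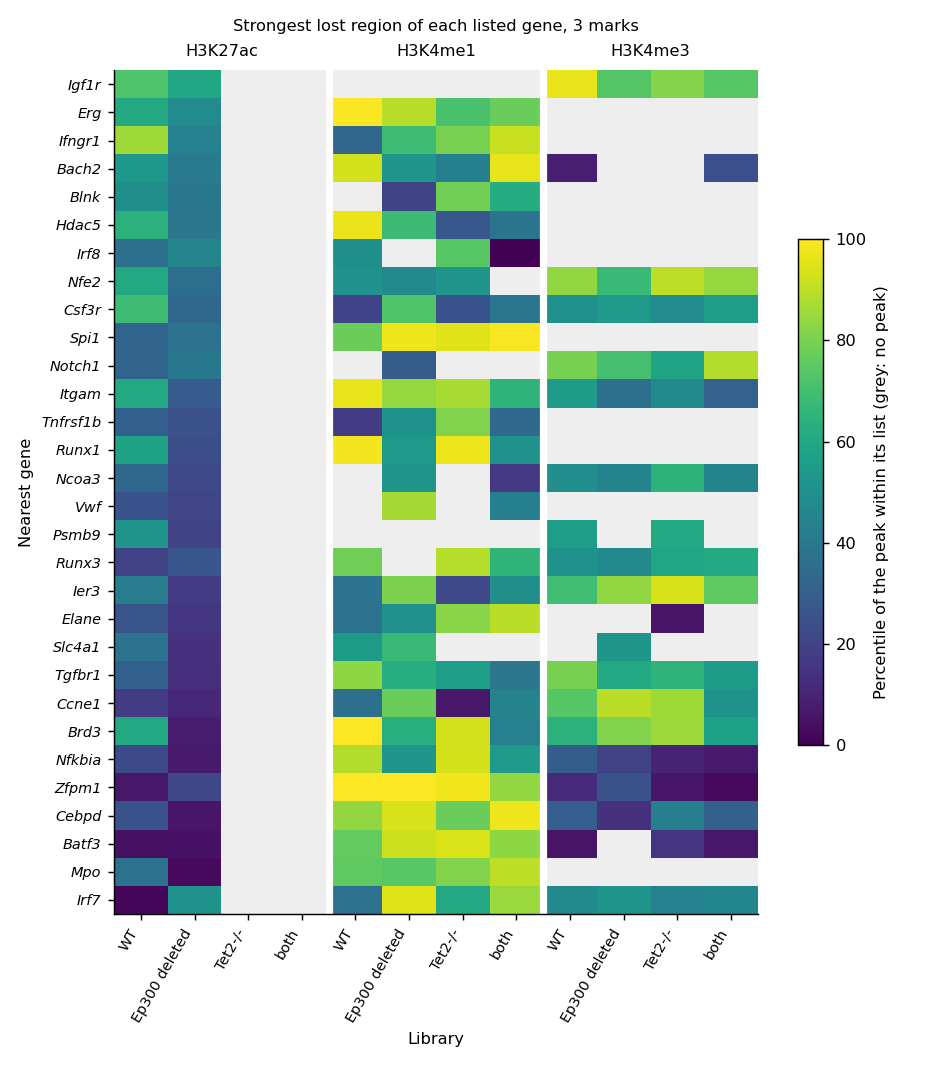
Percentile of the peak within its own list (colour, 0 to 100; grey, no peak) for the strongest lost region of each of 30 listed genes (rows) in the 12 libraries (columns, by mark; "both" is double-knockout). The H3K27ac columns of the *Tet2*-null libraries are empty by the rule that chose the regions, whereas H3K4me1 remained at regions such as that of *Spi1* (77.6, 97.4, 95.3, and 99.1) and was lost at that of *Slc4a1*.

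Consensus motifs of blood transcription factors were searched on both strands of the 200 bp around the WT summit. The 11 motifs were AACCACA for RUNX factors, AGATAA for GATA factors, CCGGAA as well as AGAGGAA for ETS factors, TTGCNNAA for CEBP factors, TGANTCA for AP-1, CAGCTG as well as CAGATG for E-box factors, AACNGTT for MYB, AGGGGGC for CTCF, and the IRF element. Each was counted on its own, so that overlapping matches of different motifs all counted. Outside promoters none of the 11 shares at the 707 lost regions differed from that of all 10209 WT regions outside promoters beyond its interval, for example 4.53% against 4.85% for RUNX, 6.51% against 7.11% for GATA, and 2.12% (95% CI, 1.19%–3.48%) against 3.17% for MYB. At the 783 lost promoters, CCGGAA was present in 4.34% (95% CI, 3.03%–6.02%) against 10.1% of all 17145 WT promoter regions. AACCACA was present in 4.98% against 2.82%, AGATAA in 6.51% against 4.37%, and CAGATG in 14.3% against 10.4%. Promoter regions acetylated in WT alone had 4.69%, 4.01%, 6.69%, and 15% of these, each within the interval of the lost promoters. A match is a description of the letters and not a binding site.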

How the data were processed

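ChIP-Seq peak lists of H3K27ac, H3K4me1, and H3K4me3 were analysed for 4 genotypes, 1 library each, mapped from the sample labels. The 8 samples for H3 and H3K27me3 were not analysed here. Per the submitters' processing notes and the methods, the authors used cutadapt (1.15) for trimming and BWA (0.7.13) for alignment to mm10, removed duplicates with Picard, and called narrow peaks with MACS2 (2.1.1.20160309) over H3 libraries, keeping peaks found in pseudo-replicates at a stated *q* of 0.05. The deposited lists give each peak a fold enrichment ratio over H3, −log10 of the *P* and *q* values, a summit, and a score; the score was not used. Labels describe single-end and the methods paired-end reads. Number of peaks moves with depth and yield, which the lists do not give, and a region just under the threshold counts as absent.

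Lists were merged at an overlap of at least 1 bp, and autosomal regions were classed by the libraries with a peak. Peaks of other marks at 1 bp of overlap counted as present. Place and nearest transcript start came from GENCODE M21 on GRCm38; promoters were 3000 bp either side of any start, exons and introns those of any transcript outside promoters. Percentiles of fold were ranked within each list, since fold values of different lists are not comparable amounts. The −log10 *q* values entered filters only. Shares carry exact 95% intervals. With 1 library per group no test was run. Merging was checked on simulated lists, and nearest starts against a full search at 300 regions of the deposited lists. Regions, gene lists, and named genes were chosen with earlier results of these data known. Named genes were the 10 strongest regions outside promoters and 5 in promoters by the lower of the WT and *Ep300*Δ/Δ percentiles, up to 30 listed genes with a lost region (31 had one; the weakest was left out), the 5 genes with most regions, and the 8 strongest regions where another mark was lost too. Some items that the rules would name are not reported here. Python 3.11.15, pandas 2.3.3, SciPy 1.17.1, and pysam 0.24.0 were used. Alternatives tried were stricter, equal-size, and upper-fold lists, wider gaps, other promoter sizes, and other windows.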

Additional observations from a re-analysis of the deposited data

How the results depend on the processing

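A total of 59 alternative values were computed for 11 results, each a count, share, or median, of which 30 stayed within the range set for sameness, which was 1.5 times for counts and the 95% interval otherwise, and 29 moved. The count of lost regions (1490) was 1490 at 50 percent overlap, 1510 on all chromosomes, and, as alternatives chosen after seeing the data, 1249 with *q* at or under 0.05 in all lists and 1227 with that *q* in WT and *Ep300*Δ/Δ only. It was 690 and 264 with −log10 *q* of at least 3 and 5 in WT and *Ep300*Δ/Δ, 802 with at least 3 in all lists, 722 with lists of equal size, 895 with no *Tet2*-null peak within 500 bp, and 92 in the upper part of both lists. Where only the WT and *Ep300*Δ/Δ lists were filtered, fewer regions follow by construction. The promoter share (52.6%) was 42.1% and 29.5% with narrower promoter windows, 44.2% for protein-coding starts, 56.1% at −log10 *q* of at least 5, and 46.1% without close *Tet2*-null peaks. In *Tet2*-/- cells the share with H3K4me1 (79.1%) was 68.9% at −log10 *q* of at least 5, 82.2% without close peaks, 73.7% with H3K4me1 peaks of −log10 *q* at least 5, and 88.1% within 500 bp, and the share with H3K4me3 (42.3%) was 47.0% with lists of equal size, 33.6% without close peaks, and 50.1% within 500 bp. As alternatives chosen after seeing the data, the joint loss of H3K4me3 (5.62%) was 4.83% to 10.8%, with 10.8% at −log10 *q* of at least 5 and 8.62% without close peaks. Its background was 0.822% to 1.45%. The joint loss of H3K4me1 (2.84%) was 1.75% within 500 bp, where the background was 1.82%, so that its order against the background (2.79%) turned, within overlapping intervals. Median width (452.5 bp) was 474.0 bp at −log10 *q* of at least 5 and 518.5 bp with lists of equal size. Median GC (52.5%) was 54.0% over 100 bp, 50.5% over 400 bp, and 51.5% outside promoters. The number of nearest genes was 1209 by protein-coding starts and 1152 within 20000 bp. The cause of the other shifts was not tested. No paired analysis was possible because each genotype and mark had 1 library, so that groups shared a single replicate number. Depth was unknown, so absence from a list cannot be told apart from a peak under the threshold.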
